A study of Homo sapiens with 18 samples.

Results

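The JAK kinases JAK1, JAK2 and JAK3, the feedback inhibitors SOCS1, SOCS2, SOCS3 and CISH, and the serine/threonine kinases PIM1, PIM2 and PIM3 were examined. The human B cells were labelled as a control or as knockouts of 1 subunit of the transcription factor NF-kB. These 10 genes were taken by symbol from a table of 17155 genes, and all 10 were among the 12381 genes tested, those averaging 10 or more normalised reads. The cells were GM12878, a lymphoblastoid B-cell line transformed by Epstein-Barr virus (EBV), and each of the 18 libraries measured polyadenylated RNA. The labels form 6 groups of 3 biological replicates: a control that received a control guide RNA, and knockouts of the NF-kB subunits RelA (encoded by RELA), cRel (REL), RelB (RELB), p52 (NFKB2) and p50 (NFKB1).

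All groups shared the genotype label "Wildtype LMP1", lentiviral delivery of a guide RNA for CRISPR, and selection in puromycin at 3 µg/ml for 5 days. Loss of each subunit was checked by immunoblot, per the labels' protocols. The sources used here do not state whether cells were pooled or clonal, how many guides each gene had, or whether replicates were separate transductions. The p-values therefore reflect spread among libraries that may be technical.

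Janus kinases (JAKs) sit on the inner tails of cytokine receptors and phosphorylate STAT transcription factors when a cytokine binds. STATs then switch on genes that include the SOCS proteins and CISH, which bind receptors or JAKs and shut the signal down, and the PIM kinases, which need no phosphorylation to be active, so that their output follows the amount of protein made. PIM kinases promote survival and growth of lymphoid cells, and NF-kB is a known activator of PIM genes.

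PIM2 carried the widest differences among the 10 genes. It was 5.35-fold higher in the RelB-labelled libraries than in the control, and also higher in the p52 and p50 knockouts. PIM1 fell 1.84-fold in the RelA knockout, where it was the one member called, and rose in the p50 knockout. JAK2 and JAK3 were higher in both the p52 knockout and the RelB-labelled libraries, JAK1 was higher in the cRel-labelled and RelB-labelled libraries, and SOCS1 was lower in the p50 knockout but higher in the RelB-labelled libraries.

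Each targeted subunit's own mRNA was compared with the control as a check of the labels, over 3 libraries a group. NFKB1 fell by 0.59 on the log2 scale in the p50 knockout, NFKB2 fell by 0.44 in the p52 knockout and RELA fell by 0.69 in the RelA knockout (limma adjusted p of 3.1e-07, 1.5e-06 and 2.6e-07). RELB was higher, not lower, in its own knockout (0.31, limma adjusted p 1.7e-04), and REL was at -0.02 in its own (limma adjusted p 0.96). RELB was also higher in the cRel-labelled libraries (0.38), the p52 knockout (0.36) and the p50 knockout (0.23), and fell by 0.82 in the RelA knockout. NFKB1 fell as well in the RelA knockout (-0.46) and the RelB-labelled libraries (-0.29), and NFKB2 in the RelA knockout (-0.36). The shifts of NFKB1, NFKB2 and RELB are therefore not particular to the targeted group. RELA was called lower in its own knockout alone. Its other log2 values against the control ran from -0.02 (cRel-labelled) to 0.28 (p52). REL was imprecise (SE 0.19), with 1554, 1717 and 856 normalised reads in the control. A guide that shifts the reading frame need not lower mRNA, so these values alone do not settle the labels, and both groups are called cRel-labelled and RelB-labelled throughout. Every direction given for them rests on the labels.

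The promoters of the 3 members with the largest limma F statistic among the knockouts (PIM2, PIM1 and JAK3), and that of CISH, are shown because these windows let a reader see which known binding patterns stand beside the values. Each is a 300-base RefSeq window on GRCh38.p14, 250 bases before to 50 bases after the gene start, on the gene's strand. Capitals mark matches to 4 patterns searched on both strands: the NF-kB consensus (kB consensus), the STAT pattern TTCNNNGAA, the TATA pattern TATAAA, and the octamer ATGCAAAT, a site of B-cell POU factors that was added to the search after the PIM2 window had been read.
PIM2 (chrX:48918975-48919274, minus strand): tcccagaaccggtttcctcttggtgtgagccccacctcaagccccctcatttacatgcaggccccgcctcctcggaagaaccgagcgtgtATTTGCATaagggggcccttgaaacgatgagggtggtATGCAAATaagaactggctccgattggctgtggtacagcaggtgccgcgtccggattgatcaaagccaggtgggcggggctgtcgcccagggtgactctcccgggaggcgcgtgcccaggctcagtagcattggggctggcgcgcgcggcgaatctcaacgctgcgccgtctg
PIM1 (chr6:37169902-37170201, plus strand): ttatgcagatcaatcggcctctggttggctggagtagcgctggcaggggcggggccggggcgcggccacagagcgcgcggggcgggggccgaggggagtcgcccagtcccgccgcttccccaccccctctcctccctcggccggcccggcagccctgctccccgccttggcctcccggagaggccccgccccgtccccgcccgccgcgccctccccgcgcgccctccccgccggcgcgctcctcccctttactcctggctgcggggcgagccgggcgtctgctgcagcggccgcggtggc
JAK3 (chr19:17847933-17848232, minus strand): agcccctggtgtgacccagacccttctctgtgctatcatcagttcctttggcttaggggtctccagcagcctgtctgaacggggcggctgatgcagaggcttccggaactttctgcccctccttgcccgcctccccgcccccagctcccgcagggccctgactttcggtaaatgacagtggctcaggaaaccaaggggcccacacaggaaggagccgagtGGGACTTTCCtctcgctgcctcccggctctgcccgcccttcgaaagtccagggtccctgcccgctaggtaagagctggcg
CISH (chr3:50611725-50612024, minus strand): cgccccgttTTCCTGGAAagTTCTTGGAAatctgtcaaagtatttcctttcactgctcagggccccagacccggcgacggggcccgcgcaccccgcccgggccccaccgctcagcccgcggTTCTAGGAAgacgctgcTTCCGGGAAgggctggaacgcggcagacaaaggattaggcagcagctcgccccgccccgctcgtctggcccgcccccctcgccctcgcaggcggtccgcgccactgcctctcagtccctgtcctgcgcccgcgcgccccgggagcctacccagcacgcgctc

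CISH held 4 STAT patterns, at -241, -230, -129 and -112 from the gene start, and was the only member with a match to that pattern in the windows searched. Its window was not chosen by the F statistic, in which CISH ranked 7731 among 12381 genes. Of 35116 promoter windows of the same length, 7.66% held at least 1 such pattern and 0.0199% held 4 or more. JAK3 held the only kB consensus match among the members' windows, at -30, a pattern found in 5.91% of windows. PIM2 held the octamer at -160 and -123, of which 1.77% of windows held 1 or more and 0.0399% held 2 or more. No member window held TATAAA, which 11.5% of windows did. In all, 9 of the 10 genes had an entry, with 15 windows between them, 3 for JAK1 and 4 for JAK2. SOCS2 had no entry. The SOCS3 windows (chr17:78360876-78361175 and 78359618-78359917) did not cover its GENCODE 29 start at 78360077, so the bases at that start were not searched. The PIM3 window (from 49960522) began after its GENCODE 29 start at 49960513. A match describes letters and is not a site of binding in these cells.

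JAK1, which pairs with many interferon and interleukin receptors, stood at 4012, 3904 and 3349 normalised reads in the 3 control libraries. The cRel-labelled libraries reached 5184, 5343 and 5360, and the RelB-labelled libraries 5389, 5383 and 5367. Every one of these 6 libraries lay above every control. The rise was 0.50 (SE 0.07) on the log2 scale in the cRel-labelled group and 0.52 (SE 0.07) in the RelB-labelled group, with limma adjusted p of 3.9e-05 and 5.0e-07. Means were 3637 ± 114 (SD, n = 3) in the p50 knockout, 4117 ± 308 in the p52 knockout and 3984 ± 216 in the RelA knockout, and none of these passed the test against the control at 3755 ± 355. The p52 difference of 0.13 (limma adjusted p 0.10) passed without control library 1 or p52 library 3 and under quantile normalization.

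JAK2, the kinase of the growth hormone, erythropoietin and interferon gamma receptors, stood at 819, 859 and 684 normalised reads in the control. In the p52 knockout it stood at 1062, 1208 and 1172, and in the RelB-labelled libraries at 1299, 1226 and 1207. These groups did not overlap the control, and the rises were 0.55 (limma adjusted p 4.7e-05) and 0.67 (limma adjusted p 1.8e-06) on the log2 scale. The cRel-labelled libraries, at 933 ± 21.4 (SD, n = 3), were all above the controls too, but the difference of 0.25 missed the threshold (limma adjusted p 0.12). The RelA (949 ± 131) and p50 (730 ± 68.5) knockouts overlapped the control.

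JAK3, which serves receptors built on the common gamma chain and is largely restricted to lymphoid and other blood cells, stood at 1946, 2113 and 1827 normalised reads in the control. The p52 knockout held 3246, 3268 and 2651, and the RelB-labelled libraries 3720, 3523 and 3219. All 6 were above every control, and the rises were 0.63 and 0.83 on the log2 scale (limma adjusted p of 5.2e-07 and 2.8e-09). Smaller rises passed in the cRel-labelled libraries (0.26, limma adjusted p 0.042) and the p50 knockout (0.24, limma adjusted p 0.016). JAK3 in the RelA knockout, at 2082 ± 29.5 (SD, n = 3), overlapped the control. Of the smaller rises, the first was lost without any 1 of the 3 cRel-labelled libraries or without control library 1 or 3 (limma adjusted p from 0.0913 to 0.196), and the second without control library 3 (0.0781) or p50 library 1 (0.0736).

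**Figure D1:**
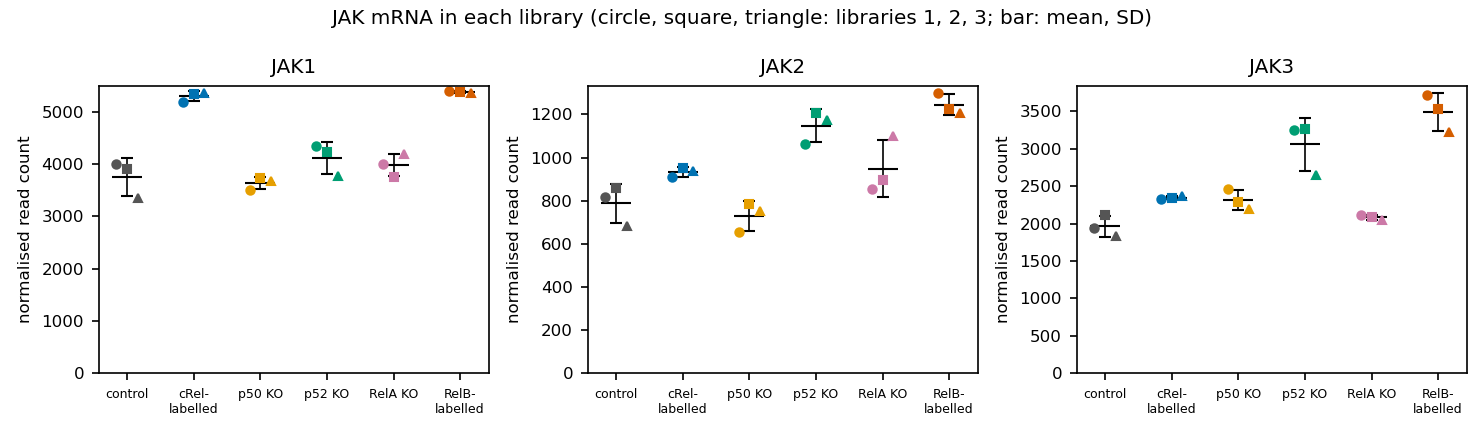
Normalised read counts of JAK1, JAK2 and JAK3 (vertical axes, from 0) in each of the 18 libraries, by group, with the mean and SD as bars. JAK3 stands highest in the RelB-labelled libraries (3219 to 3720) and next in the p52 knockout (2651 to 3268), against 1827 to 2113 in the control.

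Control library 3 was the lowest control for each of the 3 JAK genes, which have 6170 to 6813 exon bases, and the highest control for SOCS1, which has 1796. The other members did not follow length in this way. Control library 3 was also the lowest control for the shorter PIM1 (2977 bases) and PIM3 (2461). It was the highest control for CISH (5112) and the middle one for SOCS2 (6776). Leaving it out made the JAK rises smaller. Without it, the RelB-labelled rises were 0.44 for JAK1 and 0.57 for JAK2, and a correction for transcript length gave 0.44 and 0.58, all with limma adjusted p under the threshold. The part of transcript length in the JAK values was not tested beyond this correction.

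**Figure D2:**
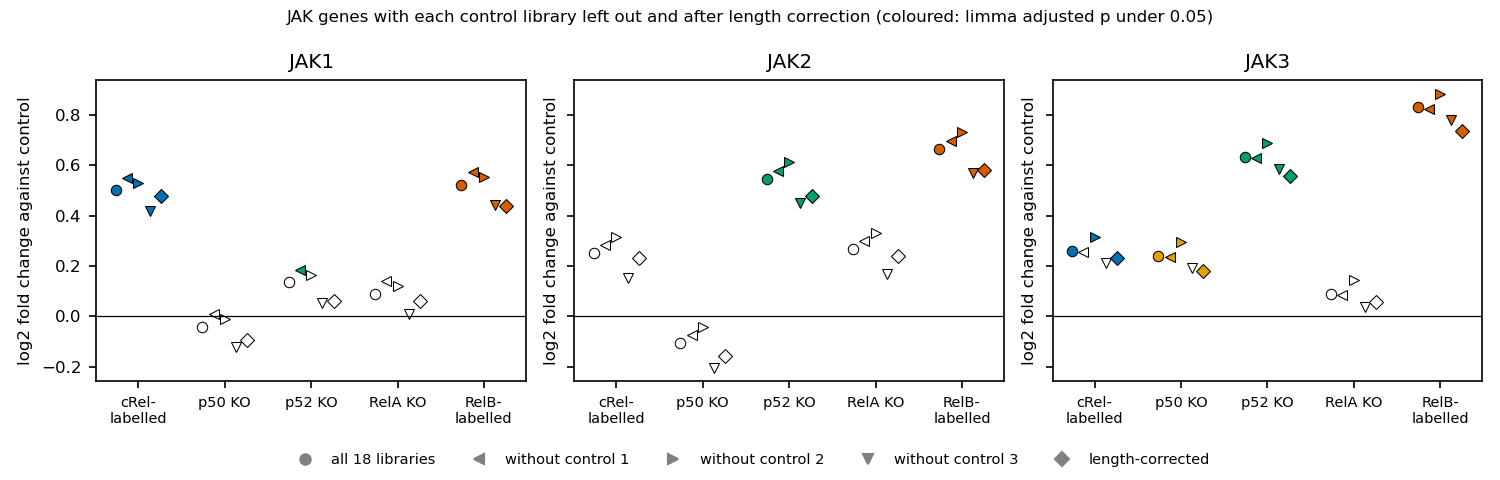
Log2 fold change against control (vertical axes) of the 3 JAK genes in the 5 knockouts, with all libraries, without each control library in turn, and after length correction; coloured symbols passed the limma threshold of 0.05. The cRel-labelled and p50 values of JAK3 turn white in some settings, while JAK2 and JAK3 stay coloured in the p52 knockout and the RelB-labelled libraries in all 5 settings.

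SOCS1, the inhibitor that blocks JAK catalytic activity directly, stood at 1771, 1580 and 1935 normalised reads in the control. It stood at 1508, 1315 and 1177 in the p50 knockout, all below the controls, a fall of 0.40 on the log2 scale (limma adjusted p 6.4e-04). In the RelB-labelled libraries it stood at 2228, 2073 and 2115, all above the controls, a rise of 0.28 (limma adjusted p 4.4e-03). The direct difference between the p50 knockout and the RelB-labelled libraries was -0.69 (SE 0.08, limma adjusted p 4.3e-07). The p52 knockout, at 2016 ± 156 (SD, n = 3), was 0.20 above the control and missed the threshold (limma adjusted p 0.052), but passed with edgeR (adjusted p 0.0348), with DESeq2 (adjusted p 0.0431) and with the replicate number as a block (limma adjusted p 0.032). It passed as well under quantile normalization, without control library 3 or without p52 library 2. SOCS1 overlapped the control in the cRel-labelled libraries (1896 ± 68.7) and the RelA knockout (1665 ± 70.3).

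The other 3 inhibitors were scarce, with 14 to 65 recovered reads per library for SOCS2, 30 to 94 for SOCS3 and 8 to 39 for CISH. SOCS2, which restrains growth hormone receptor signalling, stood at 61.8, 38.4 and 42.0 normalised reads in the control. The cRel-labelled libraries held 20.8, 22.9 and 15.2 of them, and the p52 knockout 16.7, 24.3 and 27.4. Both groups lay wholly below the controls, with falls of 1.22 (SE 0.25) and 1.02 (SE 0.25) on the log2 scale (limma adjusted p of 3.8e-03 and 1.9e-03). A fall of 0.70 in the p50 knockout (25.3, 40.0 and 22.1, limma adjusted p 0.035) was lost without control library 1 (0.171), p50 library 1 (0.0963) or p50 library 3 (0.161), and without a filter on low values (0.053). Values of 34.7, 24.6 and 38.0 in the RelA knockout were all below the controls, a difference of -0.53 that missed the threshold (limma adjusted p 0.25). The RelB-labelled libraries, at 70.0, 58.3 and 55.1, overlapped the control and were the highest group. The antisense gene SOCS2-AS1 shares 277 exon bases with SOCS2 and averaged 3.72 normalised reads; without a stated strand setting their reads cannot be told apart.

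SOCS3, the inhibitor bound to receptors of the interleukin-6 type, stood at 44.1, 48.3 and 45.2 normalised reads in the control. Reads numbered 53.1, 84.2 and 79.6 in the cRel-labelled libraries, which were all above the controls, and the difference of 0.62 on the log2 scale just missed the threshold (limma adjusted p 0.054). It passed with edgeR (adjusted p 0.0178), with DESeq2 (adjusted p 0.0273) and with the replicate block (limma adjusted p 0.033). None of the other 4 knockouts passed the main test, although all 3 p50 libraries (34.4, 36.9 and 35.9) were below it and all 3 p52 libraries (56.1, 61.3 and 62.6) above it. Under quantile normalization the p50 value passed (-0.55, limma adjusted p 0.0263), as did that of the RelB-labelled libraries (-0.46, limma adjusted p 0.0326). The RelA (35.8, 58.1 and 38.0) and RelB-labelled libraries (44.95 ± 4.56, SD, n = 3) overlapped the control as deposited.

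CISH, a STAT5 target that limits interleukin-2 receptor signalling, was the scarcest. It stood at 8.8, 14.8 and 19.4 normalised reads in the control, at 35.3, 22.1 and 22.9 in the p50 knockout and at 35.0, 18.2 and 23.5 in the RelB-labelled libraries. The rises of 0.89 and 0.81 on the log2 scale passed the test (limma adjusted p of 0.022 and 0.020), but the RelB-labelled libraries overlapped the control. The p50 call was lost without control library 1 (0.135) or p50 library 1 (0.11) or under quantile normalization (0.0883), and the RelB-labelled call without control library 1 (0.142), without RelB-labelled library 1 (0.127), with DESeq2 (0.0533) or under quantile normalization (0.292). The cRel-labelled (10.2 ± 0.845, SD, n = 3), p52 (21.5, 22.0 and 15.1) and RelA libraries (15.7, 20.1 and 21.9) overlapped the control. CISH also shares 218 exon bases with MAPKAPK3 on the opposite strand, which averaged 1788 normalised reads and fell by 0.50 in the RelB-labelled libraries (limma adjusted p 4.6e-06), so overlapping reads cannot be told apart.

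**Figure D3:**
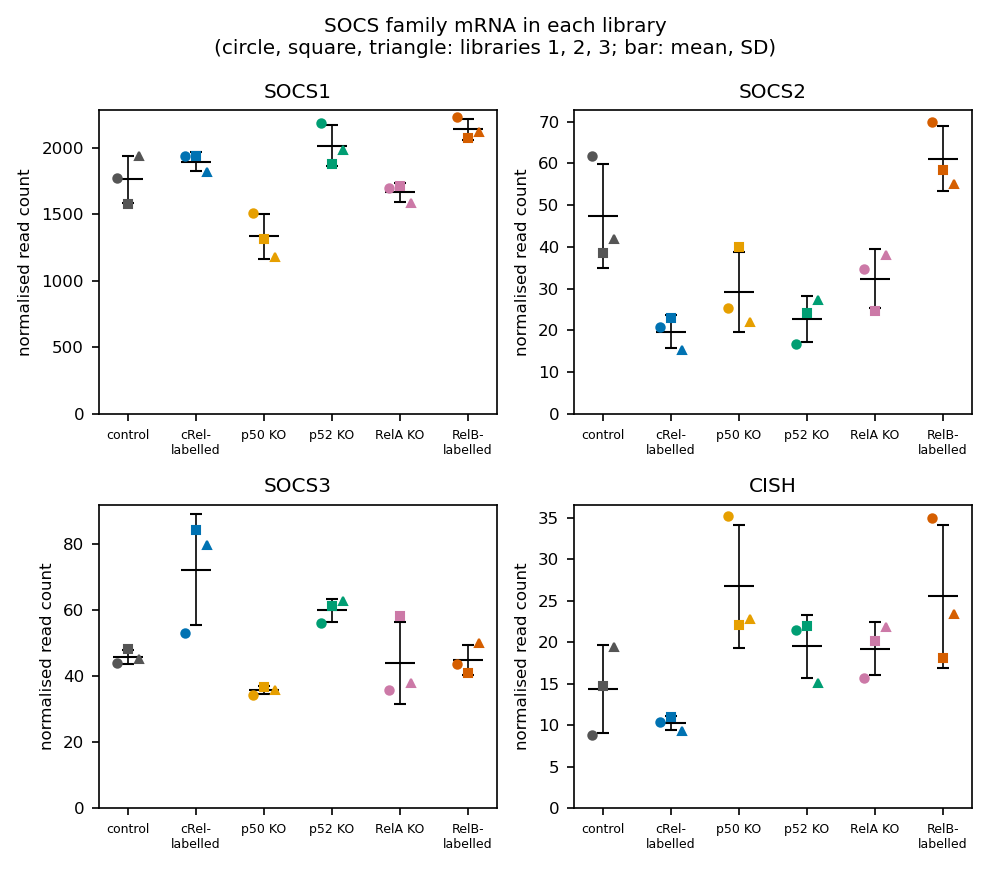
Normalised read counts of SOCS1, SOCS2, SOCS3 and CISH (vertical axes, from 0) in each of the 18 libraries, by group, with the mean and SD as bars. SOCS1 is lowest in the p50 knockout (1177 to 1508), and the axes of the other 3 genes end below 100 reads.

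PIM1, the first of the PIM kinases and a classical STAT target, stood at 3176, 3148 and 3127 normalised reads in the control. In the RelA knockout it stood at 1707, 1778 and 1656, all 3 far below every control. The fall was 0.88 on the log2 scale (SE 0.07, limma adjusted p 1.5e-08), the 66th lowest log2 fold change among the 12381 genes of that comparison. PIM1 also fell in the p52 knockout, to 2712, 2646 and 2405 (-0.29, limma adjusted p 1.4e-03), and rose in the p50 knockout, to 4333, 3998 and 3779 (0.36, limma adjusted p 3.7e-04). The p50 and RelA knockouts therefore lay on opposite sides of the control, with a direct difference of 1.23 on the log2 scale (limma adjusted p 1.8e-11). RelB-labelled libraries were at 3492 ± 329 (SD, n = 3), a difference of 0.14 that missed the threshold (limma adjusted p 0.067) but passed with edgeR, with DESeq2, under quantile normalization, without RelB-labelled library 3 and with the replicate block (limma adjusted p 0.023). The cRel-labelled libraries, at 3203 ± 119, overlapped the control.

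PIM2, the PIM kinase most tied to lymphoid and plasma cells, stood at 1461, 1159 and 1337 normalised reads in the control. It stood at 7171, 6796 and 7111 in the RelB-labelled libraries, a 5.35-fold rise (2.42 on the log2 scale, SE 0.10, limma adjusted p 2.9e-14). Intermediate levels of 2206, 2482 and 2533 were measured in the p52 knockout (0.87, limma adjusted p 5.5e-07) and of 1619, 2120 and 2272 in the p50 knockout (0.59, limma adjusted p 1.5e-04). All 9 of these libraries lay above every control. The cRel-labelled and RelA libraries, at 1259 ± 168 and 1397 ± 16.8 (SD, n = 3), overlapped the control.

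In the order of the means, PIM2 in the RelB-labelled libraries exceeded the p52 knockout by 1.55 on the log2 scale (limma adjusted p 1.2e-10), while the p52 knockout stood 0.28 above the p50 knockout and narrowly missed the threshold (SE 0.10, limma adjusted p 0.060). That difference passed with the replicate block (limma adjusted p 0.038), under quantile normalization, in a fit of only the groups compared, and without p50 library 3 or p52 library 1. The p50 knockout stood 0.51 above the RelA knockout (limma adjusted p 5.9e-04). The range of the group means of PIM2 was 2.49 on the log2 scale, wider than that of 98.2% of tested genes. PIM2 lies on the X chromosome, and its 6 nearest tested neighbours were looked at after results were known. In the RelB-labelled libraries they differed from the control by 0.04 (PQBP1) to 1.11 (KCND1), with 0.30 for SLC35A2 and 0.41 for OTUD5 beside it. SLC35A2, OTUD5, KCND1 and GRIPAP1 (0.39) were called higher by limma, and PQBP1 and TIMM17B (0.21) were not. Of all tested genes, 33.1% were called higher there.

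PIM3, which has a role in survival and energy metabolism, stood at 3840, 3954 and 3743 normalised reads in the control. It rose in the p52 knockout, to 4951, 5464 and 5029 (0.42, limma adjusted p 5.6e-04), and in the RelB-labelled libraries, to 4633, 5353 and 4686 (0.34, limma adjusted p 2.1e-03). Both groups lay above every control. The RelA libraries (3374 ± 293, SD, n = 3) all lay below the controls without passing the test (-0.19, limma adjusted p 0.24). The cRel-labelled (4220 ± 414) and p50 libraries (3907 ± 600) overlapped the control.

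**Figure D4:**
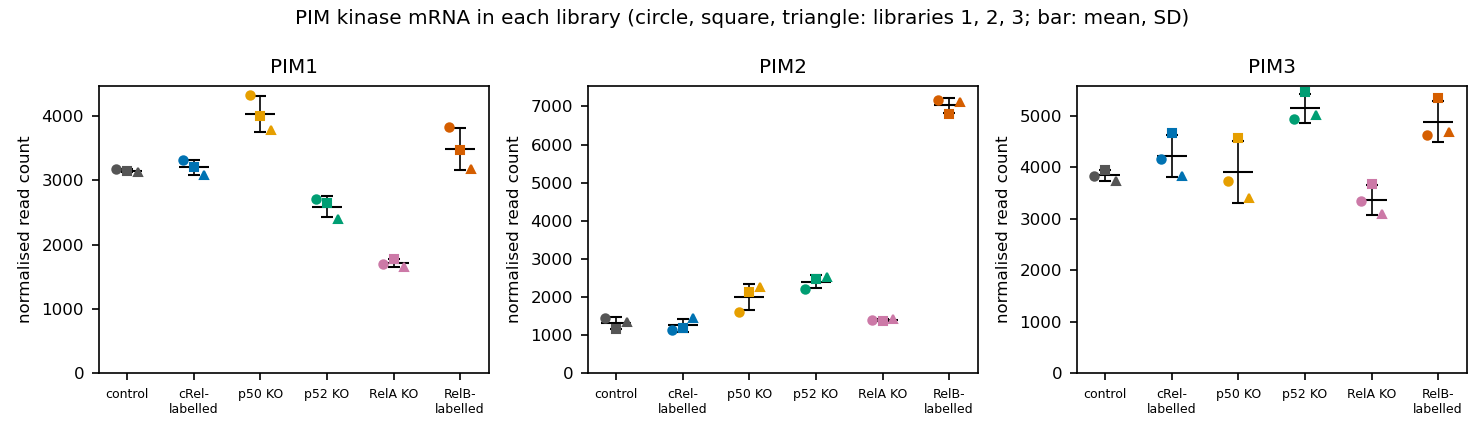
Normalised read counts of PIM1, PIM2 and PIM3 (vertical axes, from 0) in each of the 18 libraries, by group, with the mean and SD as bars. PIM1 is lowest in the RelA knockout (1656 to 1778), and PIM2 is highest in the RelB-labelled libraries (6796 to 7171).

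Per kilobase of exon, and averaged over all libraries, PIM3 was the most abundant of the members at 1719 normalised reads, followed by PIM1 at 1018, SOCS1 at 1003 and PIM2 at 930. JAK1 stood at 690, JAK3 at 373 and JAK2 at 156. SOCS3, SOCS2 and CISH stood at 18.5, 5.23 and 3.77, at percentiles 18.3, 7.2 and 4.94 of the tested genes.

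Counted by knockout, 3 of the 10 genes were called in the cRel-labelled libraries (2 higher, 1 lower), where limma called 6.09% of all tested genes, 4.17% higher and 1.92% lower. In the p50 knockout 6 were called (4 higher, 2 lower) against 36.7% of all genes (17% higher, 19.6% lower), but only 3 without p50 library 1. The p52 knockout also had 6 (4 higher, 2 lower), against 50.8% of all genes (24.5% higher, 26.4% lower). In the RelA knockout only PIM1 was called, lower, against 5.55% of all genes (2.92% higher, 2.63% lower). The RelB-labelled libraries had 7 of the 10, all higher, where limma called 67.8% of all genes, 33.1% higher and 34.7% lower. In either direction, the counts in the p52 knockout and the RelB-labelled libraries are close to the share of all genes called there, and are no result about these 10 genes. By direction, the 7 higher and 0 lower in the RelB-labelled libraries differ from the near-even split of all genes (8 members had an unadjusted p under 0.05), with no test of that difference.

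Groups without overlap were counted as well: 5 of the 10 genes in the cRel-labelled libraries (26.7% of all genes) and 6 in the p50 knockout (45%). The p52 knockout had 7 (52.5%), the RelA knockout 3 (22%) and the RelB-labelled libraries 6 (70%). The difference between these counts and shares was not tested. Median log2 fold changes of the 10 genes were 0.12, -0.01, 0.40, 0.01 and 0.45 in the cRel-labelled, p50, p52, RelA and RelB-labelled comparisons. Those of all tested genes were -0.02, 0.00, 0.00, -0.01 and 0.00. All 5 comparisons share the control libraries.

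**Figure D5:**
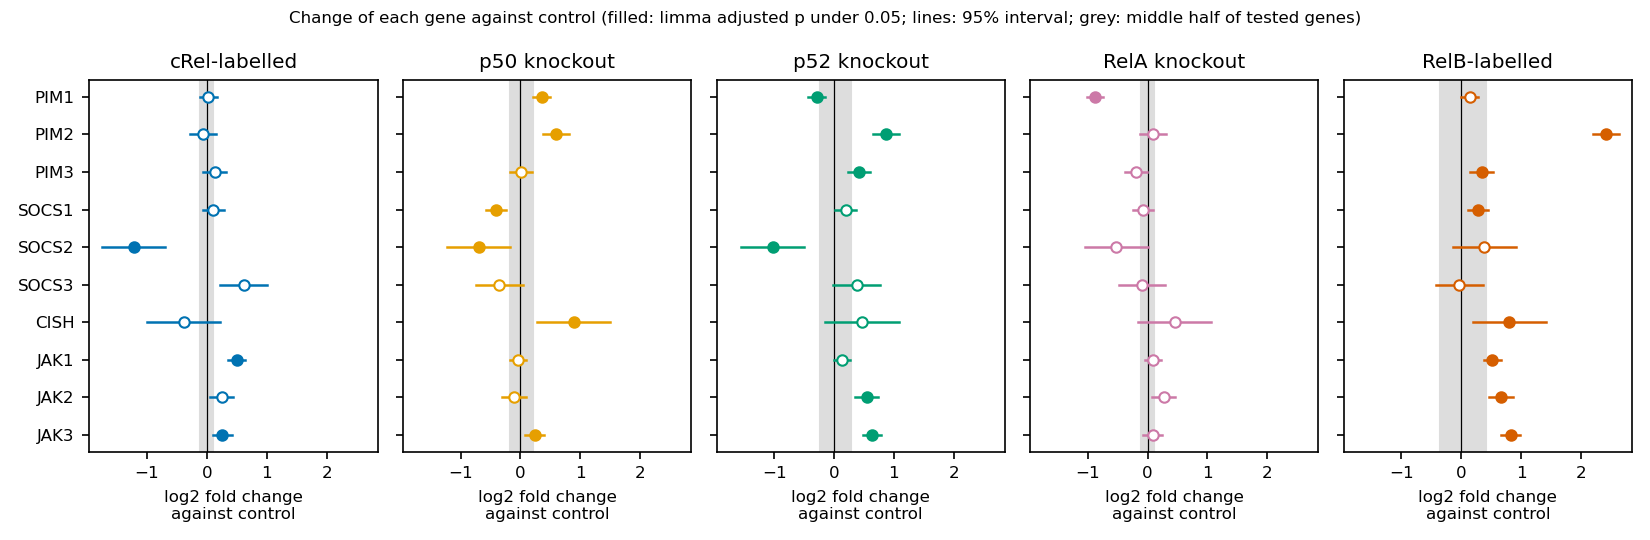
Log2 fold change against control (horizontal axes) of the 10 genes in each knockout, with 95% intervals; filled points passed the limma threshold of 0.05, and the grey band spans the quartiles of all tested genes. PIM2 in the RelB-labelled libraries (2.42) lies farthest from 0, and PIM1 (-0.88) is the one filled point in the RelA knockout.

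Compared directly, all 10 genes differed among the 5 knockouts by limma's F-test, as did 78.8% of tested genes. Over the 10 pairs of knockouts, 63 of the 100 gene-by-pair tests were called, against 43.3% over all genes. PIM1 differed in 9 of its 10 pairs, PIM2 and JAK2 in 8, and CISH in 3. Between neighbours in the order of levels, JAK1 in the RelB-labelled and cRel-labelled libraries did not differ beyond the spread (0.02, limma adjusted p 0.78), nor did JAK2 (0.12, limma adjusted p 0.32) or PIM3 (0.08, limma adjusted p 0.52) in the RelB-labelled and p52 libraries. JAK3 was 0.20 higher in the RelB-labelled libraries than in the p52 knockout (limma adjusted p 0.040), a call lost without RelB-labelled library 1 or 2 or p52 library 3. SOCS1 was 0.33 lower in the p50 than in the RelA knockout (limma adjusted p 3.2e-03).

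The genes whose profile over the 18 libraries was most like that of a member were named by the root mean square difference of centred log2 values. For PIM2 these were CD200 (0.13), DLG4 (0.22) and GSTM2 (0.22). For PIM1 they were PHACTR1 (0.19), IGF1 (0.20) and TNK2 (0.20), and for JAK3 SLC25A25 (0.09), MYO1C (0.10) and UNC13D (0.10). The root mean square of the member's own centred values was 0.87 for PIM2, 0.40 for PIM1 and 0.31 for JAK3. The PIM1 matches were loose. In the RelA knockout they stood at -0.43, -0.39 and -0.34, beside -0.88 for PIM1. In the p52 knockout they stood at -0.06, 0.11 and 0.04, beside -0.29. CD200, an immune-regulating surface protein, rose from 504 to 2498 normalised reads in the RelB-labelled libraries. Its log2 fold changes were 2.31 there, 0.91 in the p52 knockout and 0.67 in the p50 knockout, beside 2.42, 0.87 and 0.59 for PIM2.

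Counts for the pathway lists that follow are to be read against the share of all tested genes that limma called: 6.09% in the cRel-labelled, 36.7% in the p50, 50.8% in the p52, 5.55% in the RelA and 67.8% in the RelB-labelled comparison.

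Upstream of the JAKs, 6 of 24 listed cytokine ligands were tested. In the RelB-labelled libraries limma called 5 of them higher (5 had an unadjusted p under 0.05), among them EBI3, a subunit of interleukins 27 and 35, which rose from 4598 to 11704 normalised reads (1.35). EBI3 also rose in the p52 knockout (0.70) and fell in the RelA knockout (-0.64) and the cRel-labelled libraries (-0.40). IL7, a lymphocyte growth factor, rose in the p52 knockout (1.47), the RelB-labelled libraries (0.99), the cRel-labelled libraries (0.86) and the p50 knockout (0.68). Counts higher and lower were 4 and 1 in both the p52 and the p50 knockout, 2 and 1 in the cRel-labelled libraries, and 1 and 1 in the RelA knockout, where only 1 call was left without RelA library 3.

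Of 29 tested cytokine receptor genes, the RelB-labelled libraries had 16 higher and 7 lower (all genes: 33.1% and 34.7%), and the p52 knockout 16 and 4 (all genes: 24.5% and 26.4%). The median log2 fold change of the list was 0.28 and 0.38 there. The p50 knockout had 6 higher and 7 lower, the cRel-labelled libraries 7 and 1, and the RelA knockout 3 and 6. IL3RA, the interleukin-3 receptor alpha chain, rose by 1.12 in the RelB-labelled libraries, 1.03 in the p52 knockout, 0.83 in the p50 knockout and 0.68 in the cRel-labelled libraries. IL10RA, a receptor chain that signals through JAK1, rose in the cRel-labelled libraries (0.66) and fell in the RelA knockout (-0.41) and the RelB-labelled libraries (-0.60). IL2RB, a receptor chain that works with JAK1, fell in the p52 knockout (-0.57).

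Among TYK2 (the remaining JAK) and the 7 STAT genes, 6 were higher and 1 lower in the RelB-labelled libraries and 4 higher and 1 lower in the p52 knockout. STAT3 rose by 0.52 and STAT2 by 0.54 in the RelB-labelled libraries, where STAT4 fell by 0.63. STAT5A, the STAT most tied to CISH and SOCS2, rose by 0.26 in the p52 knockout and fell by 0.24 in the RelA knockout and by 0.19 in the cRel-labelled libraries. In the RelA knockout 2 were higher and 1 lower, and in the cRel-labelled libraries 1 higher and 1 lower, but 0 were called without cRel-labelled library 2, and 0 in the RelA knockout when the fit held only the groups compared. The p50 knockout had 2 and 2, with STAT4 lower (-0.68).

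Of the 7 tested genes for other SOCS proteins and the ubiquitin ligase they recruit, 1 was higher and 3 lower in the RelB-labelled libraries and 2 higher and 1 lower in the p52 knockout. TCEB1 (elongin C, which links the SOCS box to the ligase) fell by 0.61, 0.46 and 0.39 in the RelB-labelled, p52 and p50 libraries. In the p50 knockout 1 was higher (SOCS5, 0.48) and 1 lower, and the first was lost without p50 library 2. No gene of the list was called in the cRel-labelled or RelA libraries by limma, by edgeR or by DESeq2, and 0 had an unadjusted p under 0.05 there.

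Of 12 other negative regulators, 3 were higher and 5 lower in the RelB-labelled libraries, with CBLB, a ubiquitin ligase, up by 1.56 and SH2B3, an adaptor that restrains JAK2, down by 1.01. The p52 knockout had 2 higher and 4 lower and the p50 knockout 1 and 2, where PTPRC (CD45, a phosphatase that acts on JAKs) fell by 0.68 and 0.70. Neither the cRel-labelled nor the RelA libraries had a call by limma, edgeR or DESeq2, with 1 and 4 genes at an unadjusted p under 0.05. A length correction raised the p50 count to 1 higher and 4 lower, and 1 gene was called higher in the cRel-labelled libraries without control library 1, or in the RelA knockout without RelA library 2.

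Of 13 genes known as STAT targets, 6 were higher and 5 lower in the RelB-labelled libraries, where 67.8% of all genes were called, and the list's median was -0.04. BCL2, a survival factor, rose from 2518 to 7103 normalised reads (1.51) and MYC from 7780 to 19785 (1.35), while BCL6, a germinal centre repressor, fell from 237 to 37.6 (-2.62) and PRDM1, which drives plasma cell fate, fell from 903 to 304 (-1.56). The p52 and p50 knockouts each had 3 higher and 5 lower, the cRel-labelled libraries 4 and 3, and the RelA knockout 2 and 2 (0 and 2 without control library 1). In the cRel-labelled libraries BCL6 rose by 0.90 and MYC fell by 0.40.

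Of 12 known PIM substrates, 5 were higher and 4 lower in the RelB-labelled libraries, beside 67.8% of all genes called, with a list median of -0.02. In those libraries CDKN1B, a cell cycle inhibitor, rose by 0.82 and CDC25A, a cell cycle phosphatase, fell by 1.35. In the p52 knockout 3 were higher and 2 lower, with CDC25A down by 0.95. The p50 knockout had 1 higher (MAP3K5, 0.59) and 2 lower, and the cRel-labelled libraries 2 and 1. In the RelA knockout, where PIM1 fell, none was called by limma, by edgeR or by DESeq2, and 2 had an unadjusted p under 0.05 (1 was called higher with the replicate block). These are mRNA levels and do not show phosphorylation of any substrate.

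All libraries carried B-cell markers, with a summed level of 44406 to 54921 normalised reads over 9 genes. The summed T and NK cell markers (5 of 7 in the table, mostly NKG7) ranged from 652 to 738 in the RelB-labelled libraries against 368 to 513 in the control, and the monocyte markers (3 of 5 in the table, mostly CSF1R) from 736 to 769 against 383 to 415. The defining markers CD3D and CD14 averaged 0.37 and 1.22. Erythroid markers summed to 0 to 19.1, and fibroblast and epithelial markers (mostly COL1A1) to 748 to 1608. The T and NK cell and the monocyte sums were highest in the RelB-labelled libraries, where PIM2 and JAK3 were highest. The monocyte sum was also above the control in the p50 (621 to 699) and p52 knockouts (591 to 683). The T and NK cell sum was 420 to 447 and 477 to 536 in these knockouts. B-cell markers summed to 50606 to 54921 in the RelB-labelled libraries against 46196 to 47476 in the control. The part of these sums in the PIM2 and JAK3 values was not tested. In bulk RNA, a change in the share of cells that express a gene and a change in RNA per cell cannot be told apart.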

How the data were processed

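Per the submitters' processing notes, the authors used STAR 2.5.2b as aligner, featureCounts 1.5.1 as counter and DESeq2 1.14.1 for normalisation, with the build GRCh37. Strand setting, gene filter and annotation release: not given in the sources used here. The deposited values are a normalised signal per gene: whole read counts divided by 1 size factor per library. With that factor, 100% of 308790 values were whole within 0.001, giving 15.2 to 37.5 M reads per library (median 22.1 M). The 18 pairs of replicates differed by more than counting error, with a chi-square of 3.29 to 33.3 averaged over genes.

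The 10 genes and the pathway lists were chosen with earlier results of these data known. The test was limma 3.58.1 (R 4.3.3) with an intensity trend on log2(value + 1), two-sided, in 1 fit of 18 libraries with a mean per group, over 12381 genes with a mean of at least 10. Calls needed a Benjamini-Hochberg adjusted p under 0.05 within a comparison, and unless said otherwise, a log2 value is a difference on this scale, which understates changes of scarce genes. Named pathway genes are among up to 2 called in each direction per list and knockout with the smallest p. Likeness was computed for the 3 members with the largest F statistic, over genes with a mean of at least 100.

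The alternatives were edgeR 4.0.16 and DESeq2 1.42.0 on the recovered reads, pseudocounts of 0.5 and 5, other filters, quantile normalization, length correction, fits of the compared groups only, a replicate block and leaving out each library. Scripts were tested on simulated data. Replicate numbers were not used as pairs in the main fit. Same-numbered deviations of the p52 knockout and the control correlated at 0.06, 0.15 and 0.40. For 0 of 5 knockouts were all 3 such correlations with the control above 0.1. Between knockouts, the p50 and cRel-labelled libraries met that mark (0.20, 0.19 and 0.17), and the block changed no call of the 10 genes between those 2 groups. Exon lengths came from GENCODE 29, and promoters from RefSeq. No protein sequences were used here.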

Additional observations from a re-analysis of the deposited data

Results flagged for a closer look

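Opposite directions in 2 knockouts, with a test of the difference itself, were found for 3 gene-by-pair results, all by limma in 3 against 3 libraries. For PIM1, the p50 knockout exceeded the p52 knockout by 0.641 on the log2 scale (SE 0.068, limma adjusted p 4.9e-07), with 0.36 and -0.29 against the control. PIM1 in the p50 knockout exceeded the RelA knockout by 1.234 (limma adjusted p 1.8e-11), with 0.36 and -0.88 against the control. For SOCS1, the p50 knockout minus the RelB-labelled libraries was -0.6881 (limma adjusted p 4.3e-07), with -0.40 and 0.28 against the control. The values against the control share the 3 control libraries.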

How the results depend on the processing

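Of 785 alternative values for the 10 genes against the control, 733 kept their direction and side of the threshold, 22 passed only in the alternative, 18 no longer passed and 12 changed sign, none of them called in either setting. Of the 100 direct gene-by-pair results, which are not in that count, 11 called ones were lost in at least 1 alternative, 10 uncalled ones passed in at least 1, and 9 changed sign, 0 of these called. Leaving out 1 library moved the count of all genes called in the cRel-labelled libraries from 754 to between 448 and 821 (448 without cRel-labelled library 3, 475 without library 2, 481 without control library 3). In the RelA knockout the count moved from 687 to between 413 and 848 (413 without RelA library 3, 454 without library 1, 442 without control library 1). Of the 10 genes, 3 to 6 were called in the p50 knockout, with 3 without p50 library 1. The cause was not tested.

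Signs changed as follows, on the log2 scale. Under quantile normalization SOCS2 was -0.029 in the RelB-labelled libraries and JAK1 0.0563 in the p50 knockout. Leaving out 1 library at a time gave, in the cRel-labelled comparison, -0.0035 to 0.0501 for PIM1, -0.1745 to 0.0076 for PIM2 and -0.3313 to 0.1702 for REL. In the RelA knockout it gave -0.001 to 0.1658 for PIM2 and -0.3061 to 0.0356 for SOCS3. It gave -0.1066 to 0.1056 for PIM3 and -0.1222 to 0.0079 for JAK1 in the p50 knockout, and -0.1101 to 0.0279 for SOCS3 in the RelB-labelled libraries.

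With the replicate number as a block, 6 calls of the 10 genes were gained and no other changed: SOCS3 in the cRel-labelled libraries (limma adjusted p 0.033), SOCS1 in the p52 knockout (0.032), PIM1 in the RelB-labelled libraries (0.023), and 3 between knockouts, namely SOCS1 cRel-labelled against RelB-labelled (0.046), PIM2 p50 against p52 (0.038) and PIM3 p50 against RelA (0.0084). The labels give no shared batch or day for a number. Same-numbered deviations correlated above 0.1 in all 3 pairs for the cRel-labelled and p50 libraries but for no knockout with the control, and 16 of 18 libraries correlated best with their own number, a hint from the data and not the design. With 3 libraries a group and 8 to 94 reads per library, CISH, SOCS2 and SOCS3 are measured least precisely.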
